A study of Mus musculus and Rattus norvegicus with 53 samples.

Results

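The 10 genes described here encode the transcription factors Egr2, Egr1, Egr3, Pou3f1, Pou3f2, Id2, Id4 and Nfatc4 and the cofactors Nab1 and Nab2, which were chosen by symbol as a group of regulators of peripheral myelination and their relatives from 24016 genes counted in mouse. All 10 were counted in both experiments of the study and all 10 had enough counts to be tested in both. Schwann cells (SCs), the glia of peripheral nerve, were taken from mouse sciatic nerve that had been cut or left intact, and their RNA was sequenced by Smart-seq2, a full-length protocol for small inputs. Every animal carried a Cre transgene active in the Schwann cell lineage and a Rosa26 tdTomato reporter that Cre switches on for good, and the tdTomato+ cells were sorted by flow cytometry, so the sort marks cells that have had Cre activity and does not depend on their present myelin genes. The mice were male and female and 6 to 8 weeks old. In the pooled experiment 3 nerves went into each library, and 4 libraries each were made from intact nerve (iSCs), from the distal stump (dSCs) and from the bridge, the new tissue between the stumps (bSCs), both taken 6 days after the cut. In the single-nerve experiment each library came from 1 nerve, with 5 intact libraries, 3 of the distal stump at each of 6 times (days 1 and 2, then every other day from day 4 to day 10) and 3 of the bridge at each of the last 4 of these times.

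EGR2, also called KROX20, is the zinc finger factor that switches on and maintains the myelin programme of SCs, and without it SCs stop at the promyelinating stage. POU3F1 (OCT6, SCIP) and its relative POU3F2 (BRN2) act earlier, driving the step from promyelinating to myelinating cell and the onset of Egr2, and NFATC4, the calcineurin-regulated factor, cooperates with SOX10 at Egr2. NAB1 and NAB2 bind EGR proteins and are needed for EGR2 to act, EGR1 and EGR3 are immediate early relatives of EGR2 that read the same kind of site, and ID2 and ID4 are inhibitors that bind helix-loop-helix factors and keep them off DNA.

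In the mm9 build (NCBIM37, GENCODE vM1), Egr2 lay on the plus strand at chr10:66998223-67004936 with 5 exonic blocks covering 3398 bases and Egr3 at chr14:70477252-70479964. Pou3f1 (chr4:124334896-124337899) and Pou3f2 (chr4:22413791-22415480) were each a single exon on opposite strands of chromosome 4. Nab1 lay at chr1:52514138-52557523, Nab2 at chr10:127097974-127105624, Id2 at chr12:25778666-25780957, Id4 at chr13:48356796-48359405 and Nfatc4 at chr14:56443632-56452780. Egr1 overlapped Gm17507, Nab2 overlapped Stat6, Gm16229 and Tmem194, and Id4 overlapped the non-coding gene A330033J07Rik on the other strand. The libraries do not mark strand, so reads within the shared stretches cannot be told apart by strand. Reads that the counting marked as ambiguous were left out of the gene counts.

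RefSeq promoter windows (GRCm38.p6, 250 bases before to 50 after a start) were available for 7 of the 10 genes, 11 windows in all, 5 of them from alternative starts of Egr2. They were searched on both strands for an EGR site (GCGNGGGCG), an octamer as POU factors bind (ATGCAAAT), a cAMP response element (TGACGTCA) and the CArG box, the element of serum response factor. Egr1, Egr3 and Pou3f1 were not matched. The Egr2 window is shown because it holds an octamer and a CArG box upstream of its start, and the Nab1 window because it holds 3 EGR sites. Capitals mark those matches, none of which overlap.
Egr2 promoter (chr10:67537619-67537918, plus strand): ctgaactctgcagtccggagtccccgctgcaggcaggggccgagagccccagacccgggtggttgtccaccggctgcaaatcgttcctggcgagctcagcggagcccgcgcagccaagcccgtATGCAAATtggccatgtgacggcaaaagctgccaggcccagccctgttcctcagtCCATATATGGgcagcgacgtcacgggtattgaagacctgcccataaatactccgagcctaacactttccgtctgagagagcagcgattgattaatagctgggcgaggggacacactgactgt
Nab1 promoter (chr1:52500399-52500698, minus strand): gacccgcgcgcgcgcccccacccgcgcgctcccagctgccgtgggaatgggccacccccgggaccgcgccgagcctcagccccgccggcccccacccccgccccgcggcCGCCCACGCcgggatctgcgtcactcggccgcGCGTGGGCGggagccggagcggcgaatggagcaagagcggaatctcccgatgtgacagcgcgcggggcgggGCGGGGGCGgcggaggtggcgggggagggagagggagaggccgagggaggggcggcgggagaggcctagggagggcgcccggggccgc

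In the Egr2 window the octamer stood at -127 to -120 and the CArG box at -72 to -63 from the start. The Nab1 window was 81.7% G and C, and its EGR sites stood at -141 to -133, -109 to -101 and -38 to -30. Of 32851 promoter windows of the same length, 1.74% held the octamer, 1.63% the CArG box and 5.55% the EGR site. The Id4 window held 2 EGR sites and the Pou3f2 window 1, the windows of Id2, Nab2 and Nfatc4 held none, and no window of these genes held the cAMP response element. A match is a stretch of letters only, and no binding was measured.

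The libraries held 11435463 to 22617054 gene counts in the pooled experiment and 9240883 to 22426128 in the single-nerve experiment. The pooled libraries detected 11735 to 14987 genes. The single-nerve libraries detected 10042 to 15815, and 4 of them, intact replicates 0 and 1, distal day 1 replicate 1 and distal day 2 replicate 0, detected 10042 to 11138, fewer than the 11983 of the next library. Levels are given as counts-per-million (CPM) values, with TMM-normalized library sizes. The Schwann cell marker Sox10 was counted in every library, at 219.9 to 422 CPM in pooled iSCs, 69.1 to 182 in dSCs and 63.0 to 219 in bSCs. Markers of other nerve cells were present too. The 9 macrophage markers summed to 186 to 5092 CPM in pooled iSCs, 9242 to 15235 in dSCs and 2318 to 7076 in bSCs, and to 248 to 1064 in single-nerve iSCs and 9846 to 12753 at day 4 in the distal stump, with no marker at 0 in all libraries of a group. The 5 fibroblast and perineurial markers summed to 7141 to 34569.6 CPM in pooled iSCs, 21868 to 31645 in dSCs and 8217 to 17932 in bSCs. The summed level of 4 mural cell markers was lower in all dSC libraries than in any iSC library, at 205 to 1493 CPM in pooled iSCs, 69.2 to 161 in dSCs and 96.2 to 637 in bSCs. The summed level of 5 endothelial markers overlapped between the pooled groups, at 56.8 to 494 CPM over their 12 libraries, and was 396 to 2693 in single-nerve iSCs and 213 to 315 at distal day 4, with no overlap between the last pair. The part of these cells in the differences below was not tested, and fewer cells of a type cannot be told apart from less RNA per cell.

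Egr2 was lower in both injured regions than in intact nerve in the pooled libraries. Its levels were 294, 453, 245 and 165 CPM in the 4 iSC libraries, 27.8, 20.9, 39.1 and 19.2 in the dSC libraries and 80.4, 49.4, 35.3 and 83.5 in the bSC libraries. No dSC or bSC library reached the lowest iSC library, a separation whose share among all genes was not counted. The mean level fell from 289 ± 122 (SD, n = 4) CPM in iSCs to 26.8 ± 9.01 (SD, n = 4) in dSCs, lower by a fitted 10.8 times (log2 fold change -3.43, SE 0.40, adjusted p = 0.000583, edgeR's quasi-likelihood test). In bSCs it was 62.2 ± 23.6 (SD, n = 4) CPM, 4.65-fold lower than in iSCs (log2 fold change -2.22, SE 0.38, edgeR adjusted p = 0.00200). Both decreases passed the test in each of 8 fits that left out 1 library, and with pools as a block the edgeR adjusted p was 0.0145 for dSCs and 0.0273 for bSCs.

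**Figure D1:**
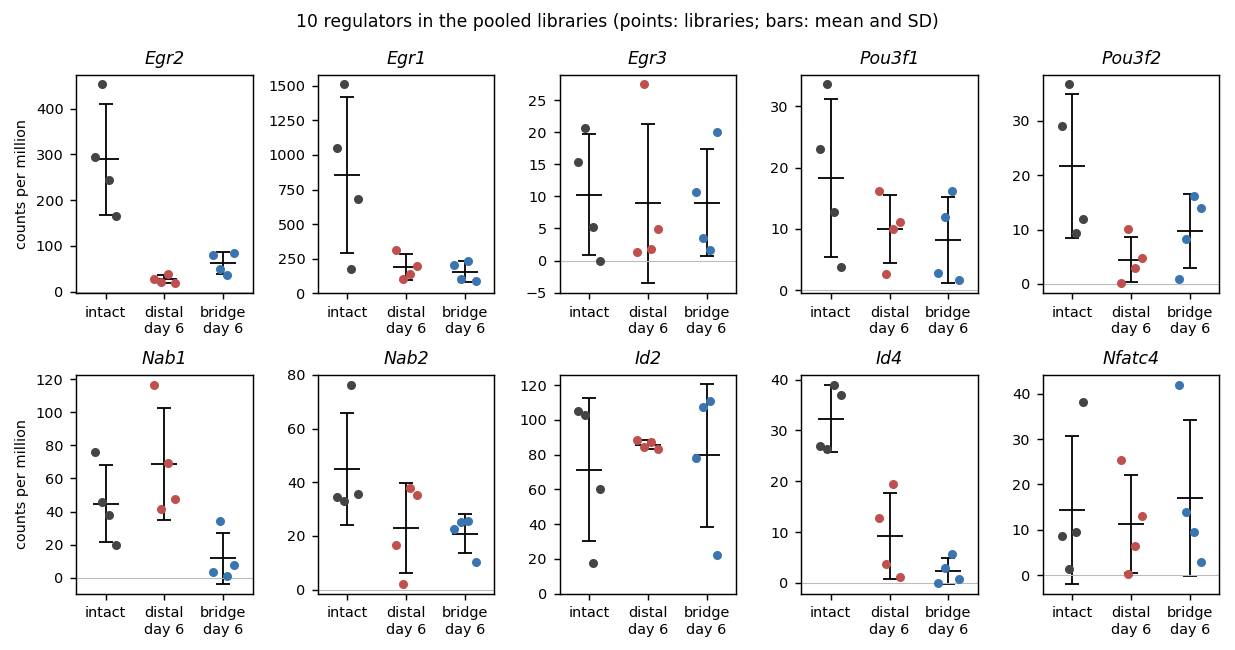
Level of each of the 10 genes in the 12 pooled libraries, in CPM, with points for libraries and bars for the mean and SD of 4 libraries. Egr2 lies between 165 and 453 in iSCs and below 165 in every dSC and bSC library, whereas Id2 overlaps across all 3 groups.

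Of the 10 members, 2 passed the test between dSCs and iSCs, Egr2 and Egr1, both lower, where 2.69% of the 13751 genes tested were called lower and 5.32% were called in either direction. Between bSCs and iSCs the same 2 members were lower, against 7.46% of all genes called lower and 14.7% in either direction. With pools as a block, 287 genes were called between dSCs and iSCs in place of 732, and 968 between bSCs and iSCs in place of 2022, and the members called remained 2 in each. The median log2 fold change of the 10 members was -0.92 in dSCs, beside -0.02 over all genes tested, and -1.16 in bSCs, beside -0.16. These comparisons share the 4 iSC libraries.

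Egr1, an immediate early gene that growth factors and stress induce within minutes, was at 1050.0, 1509.9, 179 and 684 CPM in iSCs, 315, 101.2, 140.1 and 200.1 in dSCs and 205, 100.8, 237 and 87.8 in bSCs. The iSC libraries spread widely, and iSC replicate 4 lay inside the range of the injured libraries. Egr1 fell by 2.18 on the log2 scale in dSCs (SE 0.57, edgeR adjusted p = 0.0421) and by 2.44 in bSCs (SE 0.57, edgeR adjusted p = 0.0122). The decrease in dSCs was lost in 6 of 8 fits that each left out 1 library, at edgeR adjusted p values of 0.110 without iSC replicate 1, 0.142 without iSC replicate 2, and 0.119, 0.0520, 0.106 and 0.109 without dSC replicates 1, 2, 3 and 5, and at 0.0602 when only these 2 groups were fitted. In bSCs it stayed past the threshold in all 8 such fits.

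Egr3, the third EGR member, was at 7.01 ± 6.38 CPM per kb of exon (SD, n = 4) in pooled iSCs. Its levels were 15.3, 20.7, 5.23 and 0 CPM in pooled iSCs, 1.38, 27.4, 1.85 and 4.92 in dSCs and 10.7, 3.51, 1.72 and 20.1 in bSCs. It overlapped between all groups and was not called in either injured region (edgeR adjusted p = 0.976 for dSCs against iSCs).

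Neither of the EGR cofactors passed edgeR's test in the pooled comparisons. Nab1 was at 76.1, 45.7, 37.6 and 19.9 CPM in iSCs, 117, 41.4, 69.4 and 47.6 in dSCs and 3.45, 34.4, 1.29 and 7.98 in bSCs. Every dSC library was above every bSC library, and the dSC libraries overlapped iSCs. Nab1 was 68.7 ± 34.1 (SD, n = 4) CPM in dSCs and 11.8 ± 15.3 (SD, n = 4) in bSCs, a log2 difference of -2.55 for bSCs against dSCs (SE 0.82, edgeR adjusted p = 0.0859). Against iSCs the log2 differences were 0.62 in dSCs (SE 0.78, edgeR adjusted p = 0.824) and -1.93 in bSCs (SE 0.80, edgeR adjusted p = 0.128). Without bSC replicate 2, the bSC library of highest Nab1, both bSC comparisons passed the test, at a log2 fold change of -4.02 (edgeR adjusted p = 0.0147) against dSCs and -3.42 (edgeR adjusted p = 0.00935) against iSCs. DESeq2 also called it between bSCs and dSCs.

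Nab2 was at 34.6, 33, 76.3 and 35.7 CPM in iSCs, 16.6, 2.15, 37.8 and 35.2 in dSCs and 22.6, 25.2, 25.5 and 10.2 in bSCs. All 4 bSC libraries lay below all iSC libraries, while dSC replicates 3 and 5 lay inside the iSC range. The log2 differences from iSCs were -0.97 in dSCs (SE 0.68, edgeR adjusted p = 0.583) and -1.11 in bSCs (SE 0.68, edgeR adjusted p = 0.325), neither past the threshold.

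The POU factors were at 6.09 ± 4.27 (Pou3f1) and 12.9 ± 7.86 (Pou3f2) CPM per kb of exon in pooled iSCs (SD, n = 4). Pou3f1 was at 23, 33.5, 12.7 and 3.87 CPM in iSCs, 16.2, 2.69, 9.97 and 11.1 in dSCs and 2.83, 12, 16.2 and 1.73 in bSCs. Its 3 groups overlapped, and the log2 differences from iSCs were -0.87 (SE 0.92, edgeR adjusted p = 0.776) in dSCs and -1.16 (SE 0.92, edgeR adjusted p = 0.467) in bSCs. Pou3f2 was at 29.1, 36.7, 9.39 and 11.9 CPM in iSCs, 0.0765, 10.1, 2.95 and 4.77 in dSCs and 0.852, 8.19, 16.2 and 13.9 in bSCs. The level in dSC replicate 1 rested on 1 read, and the log2 difference of -2.28 in dSCs (SE 1.15, edgeR adjusted p = 0.360) did not pass the test. In bSCs it was -1.16 (SE 1.11, edgeR adjusted p = 0.565).

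Id4, like Egr2, had injured libraries wholly below its intact ones. How many of all genes separate pooled groups in this way was not counted. Id4 was at 26.9, 26.5, 39 and 36.9 CPM in iSCs, 12.7, 3.70, 19.5 and 1.04 in dSCs and 0, 2.85, 5.59 and 0.793 in bSCs. The log2 differences from iSCs were -1.81 in dSCs (SE 1.19, edgeR adjusted p = 0.543) and -3.81 in bSCs (SE 1.29, edgeR adjusted p = 0.0647), and neither passed the test. DESeq2 called the bSC difference, as did edgeR without bSC replicate 1 (log2 fold change -3.38, edgeR adjusted p = 0.0468). Id2 overlapped between the groups. Its levels were 105, 103, 17.9 and 60.1 CPM in iSCs, 88.6, 84.3, 87.2 and 83.3 in dSCs and 77.9, 108, 111 and 22 in bSCs, so that the dSC libraries were within a narrow band inside the iSC range (edgeR adjusted p = 0.901 for dSCs against iSCs). Nfatc4 was at 8.58, 1.37, 9.54 and 38.2 CPM in iSCs, 25.5, 0.269, 6.43 and 13.1 in dSCs and 41.9, 14, 9.62 and 2.84 in bSCs. It overlapped in all groups and was not called (edgeR adjusted p = 0.945 for dSCs against iSCs).

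The study also set the bridge against the distal stump at day 6. None of the 10 members passed edgeR's test, where 5.43% of all genes did (746 genes, or 236 with pools as a block). At an unadjusted p under 0.05 there were 2, beside 2957 of all 13751 genes. DESeq2 called 2 members, Egr2 and Nab1, beside 2120 genes in all. Egr2 was at 80.4, 49.4, 35.3 and 83.5 CPM in bSCs and 27.8, 20.9, 39.1 and 19.2 in dSCs. bSC replicate 3 lay below dSC replicate 3 and the other bSC libraries lay above every dSC library, for a log2 difference of 1.22 (SE 0.37, edgeR adjusted p = 0.0726). The POU factor Pou3f2 (1.12, SE 1.11, edgeR adjusted p = 0.629) and Id4 (-2.01, SE 1.20, edgeR adjusted p = 0.371) did not pass the test.

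Per kilobase of exon, which allows levels of different genes to be compared, Egr1 was the highest member in pooled iSCs at 276 ± 182 CPM per kb (SD, n = 4), followed by Egr2 at 85.1 ± 35.8 and Id2 at 56.3 ± 32.5. Egr1 and Egr2 did not separate beyond their spread. Id4 at 19.5 ± 3.96, Nab2 at 15.3 ± 7.13, Pou3f2 at 12.9 ± 7.86 and Nab1 at 11 ± 5.75 overlapped, and Egr3, Pou3f1 and Nfatc4 were lowest. In dSCs Id2 at 67.6 ± 1.92 and Egr1 at 61.0 ± 30.0 CPM per kb overlapped. Below them Nab1 at 16.8 ± 8.34, Egr2 at 7.88 ± 2.65 and Nab2 at 7.80 ± 5.70 overlapped too. In bSCs Id2 at 62.7 ± 32.4 and Egr1 at 50.9 ± 24.1 overlapped, and Egr2 was at 18.3 ± 6.95.

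**Figure D2:**
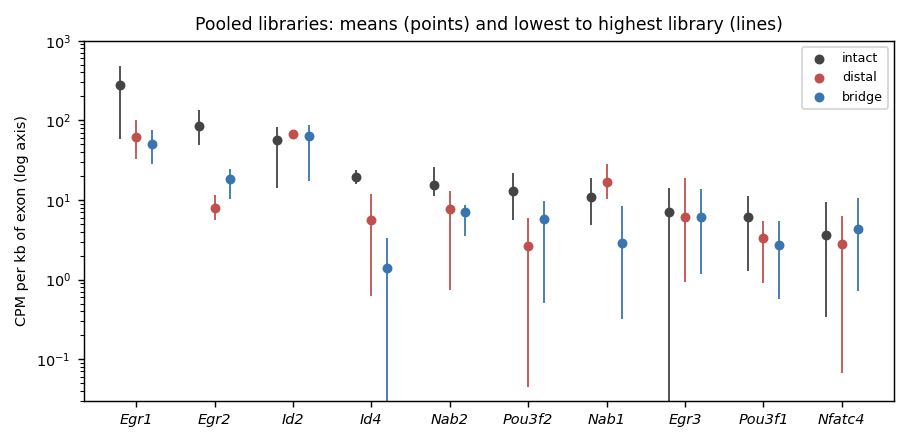
CPM per kilobase of exon of the 10 genes in the pooled groups on a log axis, with points for means of 4 libraries and lines from the lowest to the highest library, drawn to the foot of the axis where a library is at 0. By mean, Egr1 stands highest in pooled iSCs at 276 CPM per kb, and Id2 in pooled dSCs and bSCs, where it overlaps Egr1.

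In single nerves no member was called. The SEs of the members' log2 differences were 0.54 to 2.33 there, so a missed threshold does not show that a level did not differ. None of the 10 members passed edgeR's test in any of the 10 comparisons of a time point with the 5 intact libraries, in which 0.180% to 1.73% of 15519 genes were called. In the distal stump 0.180% and 0.445% of genes were called at days 1 and 2 and 1.73%, 0.554%, 0.303% and 0.354% at days 4, 6, 8 and 10, and in the bridge 1.57%, 1.33%, 0.303% and 1.30% at days 4, 6, 8 and 10. At an unadjusted p under 0.05, 0 members were past the threshold at days 1, 2, 8 and 10 of the distal stump and days 4 and 8 of the bridge, 1 at distal days 4 and 6, and 2 at bridge days 6 and 10. Of all 15519 genes, 2577 and 1945 were past it at distal days 4 and 6, and 2594 and 2415 at bridge days 6 and 10. At the other times 1048 to 2329 genes were. DESeq2 called 1 member in these 10 comparisons, Nab1 in the bridge at day 10, where DESeq2 called 1401 genes in all and edgeR 201.

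Egr2 in the 5 single-nerve iSC libraries was 92.2, 5.20, 65.1, 133 and 50.7 CPM, with intact replicate 1 well below the others. In the distal stump it was 88.9, 47 and 111 CPM at day 1, 0.386, 65.9 and 64.2 at day 2 and 39.9, 23.8 and 3.71 at day 4. Day 2 replicate 0, one of the libraries of fewest genes, rested on 2 reads, and the day 4 libraries included the next lowest level after it. The later distal libraries were at 104, 57.4 and 84 CPM at day 6, 63.2, 90.3 and 54.3 at day 8 and 62, 71 and 38.5 at day 10. All 9 of these lay inside the iSC range, whose lower end was set by intact replicate 1. The day 10 library at 38.5 CPM lay below the next lowest intact library, at 50.7. In the bridge Egr2 was 67.3, 24.9 and 64.6 CPM at day 4, 54.1, 67.4 and 129.7 at day 6, 77.5, 31.8 and 61.3 at day 8 and 169, 53.5 and 84.5 at day 10. Only bridge day 10 replicate 0 stood above every intact library.

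The distal day 4 level of 22.5 ± 18.1 (SD, n = 3) CPM, against 69.2 ± 47.6 (SD, n = 5) in iSCs, gave a log2 difference of -1.62 (SE 0.87, edgeR adjusted p = 0.345). At day 6, the time of the pooled samples, the differences were 0.24 in the distal stump (SE 0.81, edgeR adjusted p = 0.960) and 0.27 in the bridge (SE 0.81, edgeR adjusted p = 0.914). Both turned below 0 without 1 library, to -0.017 without intact replicate 1 and -0.15 without bridge day 6 replicate 3. From day 4 to day 10 in the distal stump Egr2 differed by 1.35 (SE 0.92, edgeR adjusted p = 1). No gene passed edgeR's test in that comparison, in which 0% of genes were called, 1 member and 707 genes had an unadjusted p under 0.05, and DESeq2 called 0 members and 202 genes.

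**Figure D3:**
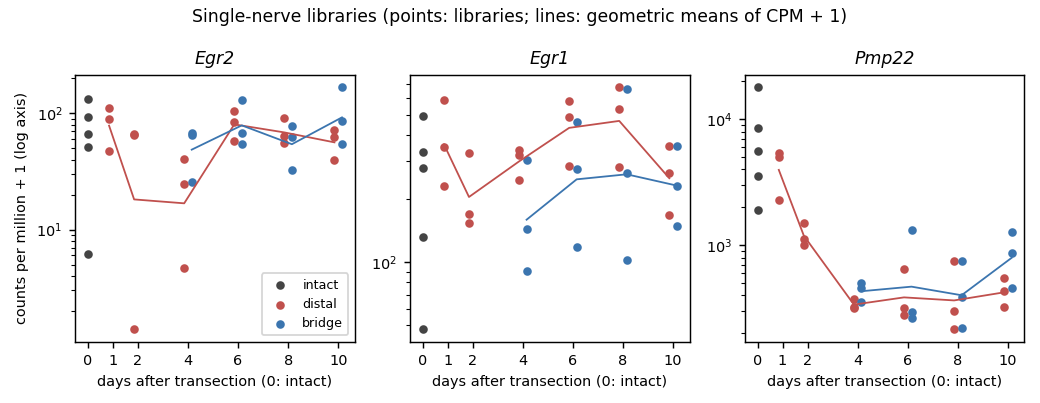
CPM plus 1 on a log axis of Egr2, Egr1 and the EGR2 target Pmp22 in 35 single-nerve libraries against days after the cut (intact at 0), with points for libraries and lines for geometric means in the distal stump and the bridge. Egr2 in the distal stump is at 39.9, 23.8 and 3.71 CPM at day 4 and lies inside the intact range of 5.20 to 133 from day 6 on, while Pmp22 at distal days 4 and 6 is below every intact library. The lower end of that Egr2 range is set by intact replicate 1 alone.

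The difference between experiments was tested directly, as the day 6 change in the pooled libraries minus that in single nerves, in a model chosen after the data were seen. For Egr2 in the distal stump this was -3.68 on the log2 scale (SE 0.87, unadjusted p = 0.000504, edgeR adjusted p = 0.571), and in the bridge -2.53 (SE 0.90, unadjusted p = 0.0122, edgeR adjusted p = 0.447). For Egr1 it was -2.98 (SE 0.91, edgeR adjusted p = 0.683) and -2.60 (SE 0.97, edgeR adjusted p = 0.448). No member passed the adjusted threshold in edgeR, where 0.00676% of genes (1 gene) were called in the distal stump and 0% in the bridge. At an unadjusted p under 0.05 there were 2 members in each, beside 826 genes in the distal stump and 1442 in the bridge. DESeq2 called 1 member in the distal stump, Egr2, beside 143 genes in all, and 0 in the bridge, beside 282 genes. The pooled iSC libraries held 165 to 453 CPM of Egr2 and the single-nerve iSC libraries 5.20 to 133, so the highest single-nerve value lay below the lowest pooled value. These CPM values, and those of Sox10 below, were scaled within each experiment and not across them, which limits this reading. Other lists differed between the experiments alongside. In the distal stump 5 of 6 Schwann markers, 8 of 14 immediate early genes and 5 of 13 EGR2 targets had an unadjusted p under 0.05, where 5.58% of all genes did, and none was called by edgeR. Their median differences between the experiments were -2.56, -2.06 and -1.45 on the log2 scale, beside -0.0044 over all genes. In the bridge 4, 0 and 2 of them had an unadjusted p under 0.05, where 9.92% of all genes did. DESeq2 called 1 Schwann marker, 1 immediate early gene and no target in the distal stump and none in the bridge. The marker Sox10 was 21.1 to 107 CPM in single-nerve iSCs, beside 219.9 to 422 in pooled iSCs. The number of nerves in a library cannot be told apart from any other difference between the experiments.

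Egr1 in single-nerve iSCs was 131, 46.8, 333, 494 and 277 CPM, overlapping every injured group, and ranged over the 35 libraries from 46.8 to 678. At day 6 it was 581, 486 and 285 in the distal stump and 276, 116 and 461 in the bridge (log2 difference of 0.81 for the distal stump, SE 0.58, edgeR adjusted p = 0.594). Egr3 was 0, 11.1, 0.951, 8.91 and 5.91 CPM in iSCs, 12.2, 22.2 and 60.3 in the distal stump at day 6 and 23.7, 24.9 and 43.6 in the bridge at day 6. Every day 6 library was above every intact one, with log2 differences of 2.55 (SE 1.06, edgeR adjusted p = 0.318) and 2.51 (SE 1.06, edgeR adjusted p = 0.236), neither past the threshold. In the pooled libraries Egr3 overlapped between all groups. How many of all genes separate single-nerve groups in this way was not counted, here or for the genes below. At bridge day 10 Egr3 was 51.2, 24.7 and 6.45 CPM.

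Nab1 in single nerves was 23.6, 45.6, 40.7, 56.8 and 80.9 CPM in iSCs and 93.2, 91.5 and 79 at distal day 8. In the bridge it went from 64.1, 75.5 and 63.9 CPM at day 8 to 27.9, 6.63 and 4.84 at day 10. Day 10 replicates 2 and 3 were below all intact libraries while replicate 0 was not. The day 10 bridge difference was -1.91 on the log2 scale (SE 0.59, edgeR adjusted p = 0.109). It passed the test without bridge day 10 replicate 0 (-3.17, edgeR adjusted p = 0.0251), without the 4 libraries of fewest genes (-2.21, edgeR adjusted p = 0.0474) and with DESeq2. Over days 4 to 10 the mean bridge minus distal difference of Nab1 was -0.68 (SE 0.31, edgeR adjusted p = 0.474). No member passed in that comparison, where 0.103% of genes were called (16 genes, or 236 with animals as a block). At an unadjusted p under 0.05 there was 1, beside 1398 of all 15519 genes, and DESeq2 called 0 members. Egr2 differed there by 0.45 (SE 0.45, edgeR adjusted p = 0.969), Egr1 by -0.51 (SE 0.33, edgeR adjusted p = 0.764) and Id4 by -1.81 (SE 1.10, edgeR adjusted p = 0.726). Nab2 ranged from 0.437 to 58.5 CPM with no group apart, from 1.26, 1.79, 28.4, 23.3 and 33.2 in iSCs to 11.9, 58.5 and 14.9 at distal day 6.

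The POU factors were detected unevenly in single nerves. Pou3f1 was 6.00, 16.9, 4.97, 16.3 and 4.44 CPM in iSCs, 13.1, 8.86 and 38.2 at distal day 6 and 37.4, 25.3 and 0.376 at bridge day 10. Libraries of one group lay far apart, and the distal day 6 difference was 1.05 (SE 1.09, edgeR adjusted p = 0.770). Pou3f2 was 0, 0, 0, 10.0 and 5.66 CPM in iSCs and 0.339, 0 and 0 at distal day 4. It was detected in 2 of 5 intact libraries and 1 of 3 day 4 libraries, the latter by 7 reads. Later it was 2.73, 6.28 and 9.73 CPM at distal day 10 and 27.7, 21.5 and 21.3 at bridge day 10. All 3 bridge day 10 libraries lay above all intact libraries and all 3 distal day 10 libraries above all day 4 ones. The log2 differences were 2.89 for bridge day 10 against iSCs (SE 1.82, edgeR adjusted p = 0.443), -4.62 for distal day 4 against iSCs (SE 2.33, edgeR adjusted p = 0.316) and 5.60 for distal day 10 against day 4 (SE 2.51, edgeR adjusted p = 0.981).

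Id2 was, per kb of exon, the highest member in single-nerve iSCs, at 159 ± 131 CPM per kb (SD, n = 5), beside 82.8 ± 56.5 for Egr1, which it overlapped. Its levels were 314, 437, 47.8, 94.2 and 118 CPM in iSCs, 135, 478 and 188 at distal day 1, 619.5, 163 and 113 at day 2 and 106, 36.2 and 72.5 at day 4. The 4 libraries of fewest genes, which held 314, 437, 478 and 620 CPM, accounted for 4 of the 5 highest levels of all 35, the other being bridge day 10 replicate 0, and the rest ranged from 25.9 to 325. Distal day 4 differed from iSCs by -1.49 (SE 0.65, edgeR adjusted p = 0.244), distal day 6 by -1.14 (SE 0.64, edgeR adjusted p = 0.457) and bridge day 6 by -1.51 (SE 0.65, edgeR adjusted p = 0.243). Without those 4 libraries these differences became -0.18, 0.12 and -0.23. Id4 was 0.279, 28.3, 3.43, 10.0 and 1.22 CPM in iSCs, 0, 1.70 and 0 at bridge day 6 and 0, 2.26 and 0.107 at bridge day 10. Nfatc4 ranged from 2.01 to 34.8 CPM with no group apart.

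**Figure D4:**
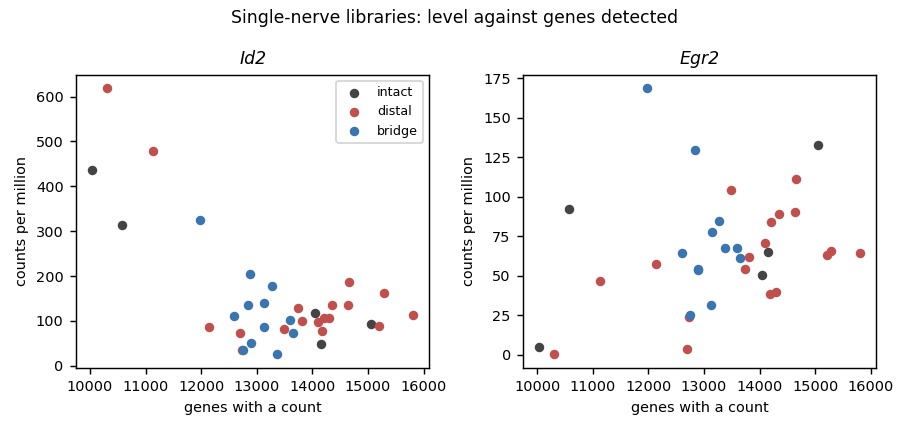
Level of Id2 and Egr2 in CPM in the 35 single-nerve libraries against the number of genes with a count in the library, with points for libraries coloured by region. The 4 libraries with 10042 to 11138 genes hold 314 to 620 CPM of Id2 while the others range from 25.9 to 325.

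EGR2 acts on myelin genes, and 13 of these targets were tested. Peripheral myelin protein 22, Pmp22, is among its best known targets. In the pooled libraries 12 of 13 were lower in dSCs and 12 of 13 lower in bSCs than in iSCs, with 2.69% and 7.46% of all genes called lower, and median log2 fold changes of -4.43 and -4.49 beside -0.02 and -0.16 over all genes. The level of Pmp22 was 32546 ± 11320.5 (SD, n = 4) CPM in iSCs, against 672 ± 528 (SD, n = 4) CPM for dSCs. The log2 fold changes in dSCs were -5.60 for Pmp22 (SE 0.62, edgeR adjusted p = 0.000516), -6.86 for Ncmap, a membrane protein of non-compact myelin, and -6.89 for Fa2h, the fatty acid hydroxylase of myelin lipids. In bSCs they included -5.99 for Drp2, -5.68 for Fa2h and -5.60 for Dusp15. Between bSCs and dSCs 0 of 13 were called by edgeR, 1 had an unadjusted p under 0.05 and DESeq2 called 0, with a median of 0.25. Without 1 library Fa2h was lost in 6 of 8 fits, all but those without iSC replicate 5 or dSC replicate 3 (edgeR adjusted p = 0.0811 to 0.0995) in dSCs, and Fa2h was lost in 7 of 8 fits, all but those without iSC replicate 5 (edgeR adjusted p = 0.0541 to 0.0899) in bSCs.

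In single nerves, where Egr2 was not called, 4 of these 13 targets were lower at distal day 4, 2 at day 6, 2 at day 8 and 3 at day 10, and none by edgeR at days 1 and 2, where 1 and 6 had an unadjusted p under 0.05 and DESeq2 called 0 and 2. The bridge had 3, 1, 3 and 1 at days 4, 6, 8 and 10. At distal day 4 they included log2 fold changes of -6.55 for Prx, -4.90 for Mbp and -4.48 for Pmp22, and at day 6 -4.68 for Mbp and -4.19 for Pmp22. Pmp22 was 18155, 5607, 1918, 8470.5 and 3580.1 CPM in iSCs, 324, 373 and 318 at distal day 4 and 279, 318 and 646 at day 6. All of these day 4 and day 6 libraries lay below all intact ones, whereas Egr2 in the same day 6 libraries lay inside the intact range. Without the 4 libraries of fewest genes, 4 targets were still lower at distal day 4, and 1 at each of days 6, 8 and 10, and the bridge had 2, 1, 1 and 1. At day 4 Prx was lost without distal day 4 replicate 0 or 2 (edgeR adjusted p = 0.0820 to 0.124) and Mbp was lost without distal day 4 replicate 0, 1 or 2 (edgeR adjusted p = 0.0732 to 0.103). At day 6 Mbp was lost in 6 of 8 fits, all but those without intact replicate 3 or 5 (edgeR adjusted p = 0.0557 to 0.254). With only the groups compared in the fit, the edgeR adjusted p of Pmp22 was 0.0511 at day 4 and 0.198 at day 6.

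Other regulators of the myelin programme (19 tested) were mixed. In dSCs 1 was higher, Chd3, a chromatin remodeller subunit (1.98, SE 0.47, edgeR adjusted p = 0.0285), and 4 were lower. The lower ones included Gpr126, the receptor that starts myelination (-2.49, edgeR adjusted p = 0.0219), Srebf2, a sterol regulator (-2.38, edgeR adjusted p = 0.00243) and Sox10, the lineage factor that works with EGR2 (-1.46, edgeR adjusted p = 0.0471). With pools as a block, Gpr126 (edgeR adjusted p = 0.117) and Sox10 (edgeR adjusted p = 0.0528) were no longer called. Leaving out 1 library, Gpr126 was lost in 5 of 8 fits, all but those without iSC replicate 4 or 5 or dSC replicate 5 (edgeR adjusted p = 0.0556 to 0.0750), Chd3 was lost in 6 of 8 fits, all but those without iSC replicate 5 or dSC replicate 3 (edgeR adjusted p = 0.0519 to 0.0873) and Sox10 was lost in 6 of 8 fits, all but those without iSC replicate 5 or dSC replicate 3 (edgeR adjusted p = 0.0980 to 0.133). In bSCs 1 was higher, Ppp3r1, and 4 were lower, Rxrg (-4.51, edgeR adjusted p = 0.0475), Srebf2 (-1.77), Sox10 (-1.39) and Srebf1 (-1.07). With pools as a block Rxrg (edgeR adjusted p = 0.132) and Srebf1 (0.0968) were no longer called. Leaving out 1 library, Rxrg was lost in 5 of 8 fits, all but those without iSC replicate 5 or bSC replicate 1 or 5 (edgeR adjusted p = 0.0649 to 0.127), Sox10 was lost in 6 of 8 fits, all but those without iSC replicate 5 or bSC replicate 3 (edgeR adjusted p = 0.0562 to 0.0748) and Srebf1 was lost without iSC replicate 1 or 2 or bSC replicate 3 (edgeR adjusted p = 0.0502 to 0.0815). Between bSCs and dSCs 1 of 19 was called, Ppp3ca (-1.15, edgeR adjusted p = 0.0497), and Ppp3ca was lost in 6 of 8 fits, all but those without bSC replicate 1 or 3 (edgeR adjusted p = 0.0694 to 0.115). In the 12 single-nerve comparisons 0 of 19 were called by edgeR, 0 to 5 had an unadjusted p under 0.05 and DESeq2 called 0 to 2. Without the 4 libraries of fewest genes 1 was called, Ppp3cb, a calcineurin subunit, higher at distal day 4 (1.92, edgeR adjusted p = 0.0238, beside 1.04 and 0.283 with them).

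Of the 7 tested factors that oppose myelination, edgeR called 0 in the 3 pooled and 12 single-nerve comparisons. At an unadjusted p under 0.05 there were 2, 2 and 1 between dSCs and iSCs, bSCs and iSCs, and bSCs and dSCs, and 0 to 4 in single nerves. Counted separately over the list, DESeq2 called 0, 2 and 1 in these pooled comparisons and 0 to 3 in single nerves. Jun, the repair cell factor, was 749 ± 440.3 (SD, n = 4) CPM in iSCs and 476 ± 126 (SD, n = 4) in dSCs, and Ednrb 137 ± 20.2 (SD, n = 4) and 342 ± 144 (SD, n = 4).

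Of the other immediate early genes, 14 were tested. In dSCs 3 were lower, Nr4a1 (-2.94, edgeR adjusted p = 0.0134), Nr4a2 (-2.85, edgeR adjusted p = 0.0172) and Fos (-2.23, edgeR adjusted p = 0.0436), and in bSCs 5 were lower, among them Nr4a2 (-2.44), Fos (-2.40), Nr4a1 (-2.07) and Junb (-2.04). The medians were -1.48 in dSCs and -1.67 in bSCs, beside -0.02 and -0.16 over all genes. Their summed level was 1808 to 12996 CPM in pooled iSCs, 1639 to 2404 in dSCs, 1149.7 to 3081 in bSCs and 1538 to 5079 in single-nerve iSCs, and 0 of 14 were called by edgeR in the 12 single-nerve comparisons, with 1 to 6 at an unadjusted p under 0.05 and 0 to 3 called by DESeq2. Without the 4 libraries of fewest genes 1 was called, Fos, lower at bridge day 4 (-1.80, edgeR adjusted p = 0.0359, beside -1.57 and 0.163 with them). In dSCs Nr4a1 was lost without dSC replicate 5 (edgeR adjusted p = 0.0528), Nr4a2 was lost without iSC replicate 1 or 2 or dSC replicate 5 (edgeR adjusted p = 0.0587 to 0.0639) and Fos was lost in 6 of 8 fits, all but those without iSC replicate 4 or 5 (edgeR adjusted p = 0.102 to 0.169). In bSCs Nr4a2 was lost without iSC replicate 2 (edgeR adjusted p = 0.0508), Fos was lost without iSC replicate 2 or bSC replicate 3 (edgeR adjusted p = 0.0509 to 0.0601), Nr4a1 was lost in 5 of 8 fits, all but those without iSC replicate 4 or 5 or bSC replicate 1 (edgeR adjusted p = 0.0581 to 0.109) and Junb was lost in 5 of 8 fits, all but those without iSC replicate 4 or 5 or bSC replicate 1 (edgeR adjusted p = 0.0591 to 0.0957). Between bSCs and dSCs 1 was called, Atf3 (-2.60, edgeR adjusted p = 0.0149). Their part in the Egr1 difference was not tested. Over the 35 single-nerve libraries, the genes whose log2 level followed Egr1 most closely included Ier2 (Pearson r 0.84), Zfp36 (0.81) and Fos (0.79), which are early genes too.

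**Figure D5:**
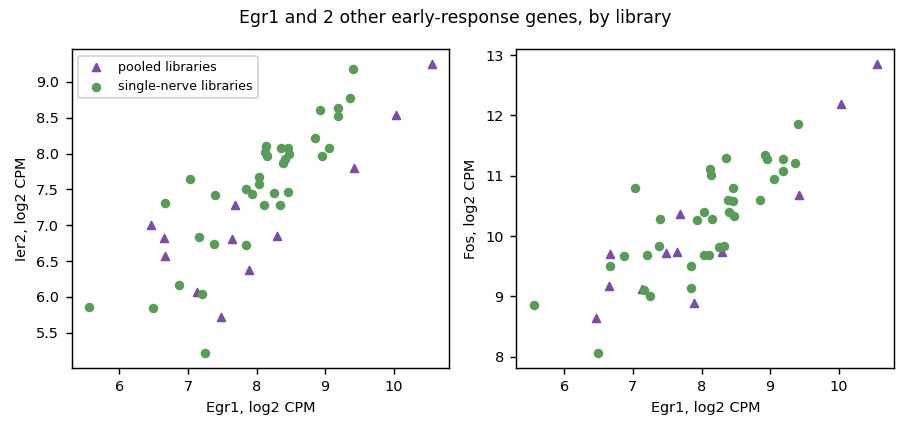
Log2 CPM of the immediate early genes Ier2 and Fos against log2 CPM of Egr1 in the same library, with triangles for the 12 pooled and circles for the 35 single-nerve libraries. Over the single-nerve libraries r was 0.84 for Ier2 and 0.79 for Fos.

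The genes whose pattern was most like that of Egr2 over the 35 single-nerve libraries, by Pearson r of log2 CPM, were Spg20 (0.91), Klf11 (0.89), Gtf3c5 (0.89), Tnfrsf21 (0.88) and Cpt2 (0.88). Over the 31 libraries left without those of fewest genes the values were 0.75, 0.85, 0.87, 0.64 and 0.76. For Pou3f1 they included Ispd (0.70), Kcna1 (0.68), Tmod2 (0.66) and Fbxw9 (0.66), and over 31 libraries 0.71, 0.70, 0.71 and 0.71. Libraries share depth and preparation, so these values describe the ranking only. Between members, Egr2 and Nab2 had r of 0.50 over 35 single-nerve and 0.49 over 12 pooled libraries, and Egr2 and Egr1 of 0.33 and 0.68.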

How the data were processed

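Gene counts came from RNA of tdTomato+ Schwann cells in 47 mouse libraries, 12 pooled and 35 from single nerves, and the 6 rat libraries of the series were not analysed here. Per the labels, the libraries were made with Smart-seq2 and the reads processed by the authors with TopHat2 2.0.11 and HTSeq against mm9, and the deposited values are whole-number read counts per gene, not normalized. Lane files of a library were summed (8 pooled libraries had 2), and 92 spike-in entries were set aside. Reads in the no feature and ambiguous entries made up 52.9% to 60.8% of the reads in these, the gene and the spike-in entries together. They stayed out of the library sizes.

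The experiments were normalized and fitted separately with edgeR 4.0.16 in R 4.3.3 (TMM factors, filterByExpr with a minimum count of 10, quasi-likelihood test, Benjamini-Hochberg adjusted p under 0.05), all groups of an experiment sharing 1 spread, which left 13751 and 15519 genes. CPM used the TMM library sizes, and levels per kb divided by exonic bases. Log2 levels for correlations had a prior count of 2. Alternative runs used DESeq2 1.42.0, its size factors, or no filter. Another took only the gene rule of the study's filter, a count of 100 in 85% of libraries. Before that rule the study also removed single-nerve libraries with few detected genes, and it reports fewer intact ones than the 5 kept here. Further alternatives were fits of only the groups compared, a lane covariate, a replicate block and each library left out. The fits were tested on simulated data with only the groups compared in each fit. There the single-nerve design recovered none of the changed genes, and the pooled design recovered a minority of them.

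The 10 members, the gene lists and the rule for genes named were chosen with earlier results of these data known. The rule names the members, up to 4 list genes of largest change among those called (the 2 of highest level where none was), and the 5 genes of highest r with Egr2 and Pou3f1. Some items that the rule names are not reported here. Ier2, Zfp36, Fos, Ppp3r1, Ppp3cb and the r values for Egr1 were added after their values were seen. Replicates are separate animals or pools of animals by the labels, and same-numbered libraries share a pool in the pooled experiment. In single nerves only the bridge and distal libraries of 1 day share an animal. Their deviations from the group means correlated at a mean r of -0.0143 over 10 pooled pairs and 0.156 over 10 single-nerve pairs. The label of 1 day 10 bridge library gave an animal in conflict with its title, and it was kept out of the pairs.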

Additional observations from a re-analysis of the deposited data

Results flagged for a closer look

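Of 40 combinations of a member and a group of 4 to 10 libraries searched, 2 held a library far from the rest, and chance alone gives about 1 in 20. Egr3 was 27.4 CPM in pooled dSC replicate 2, beside 4.92 in the next highest dSC library, a gap that took 0.864 of the whole range of the group. Nab2 was 76.3 CPM in pooled iSC replicate 4, beside 35.7 in the next highest iSC library, a gap of 0.936 of the range. Neither gene was called in the pooled comparisons.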

How the results depend on the processing

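Between pooled dSCs and iSCs, 2 members were called, 1 when only the groups compared were fitted and 1 to 2 without 1 library, Egr1 being the member lost. Between bSCs and dSCs, 0 were called, 2 with DESeq2 and 0 to 1 without 1 library. At day 10 of the bridge in single nerves 0 were called, 1 with DESeq2, 1 without the 4 libraries of fewest genes and 0 to 1 without 1 library, Nab1 in each case. For the distal difference between experiments 0 were called and 1 with DESeq2, which called 143 genes in all there. Leaving those 4 libraries out, and the difference between experiments, were alternatives chosen after seeing the data. Signs turned in 3 fits, for Egr2 at day 6 in the distal stump (-0.017 without 1 library, range -0.017 to 0.65), for Egr2 at day 6 in the bridge (-0.15, range -0.15 to 0.70) and for Id2 at distal day 6 (0.12 without the 4 libraries), and the cause was not tested. With the replicate block, members called stayed at 2, 2 and 0 in the pooled comparisons and 0 between bridge and distal stump in single nerves. The block ended the calls of 6 list genes, Gpr126 and Sox10 in dSCs, Rxrg, Srebf1 and Id3 in bSCs, and Ppp3ca between bSCs and dSCs (edgeR adjusted p = 0.0869 for Ppp3ca), and changed no other call of a named gene. Over all genes DESeq2 called more than edgeR, 1535, 3373 and 2120 genes in place of 732, 2022 and 746 in the pooled comparisons, and 342 to 1500 in place of 28 to 268 in single nerves against iSCs. With only the groups compared, 0 to 43 genes were called in those single-nerve comparisons, and 485 between bSCs and dSCs. With 3 to 5 libraries a group, SEs of 0.54 to 2.33 on the log2 scale limit what could be told for the members in single nerves.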

Other observations

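The relatives of the members were mostly not called. Of 9 relatives listed, 6 were tested. Id3, an inhibitor of the same family as Id2 and Id4, was lower in pooled bSCs than in iSCs (log2 fold change -1.45, edgeR adjusted p = 0.0207), and was not called with pools as a block (0.0547). In single nerves Id1 (-3.25, edgeR adjusted p = 0.0479) and Id3 (-2.51, edgeR adjusted p = 0.0259) were lower at distal day 4. Without the 4 libraries of fewest genes these had an edgeR adjusted p of 0.0908 and 0.145. Id3 was also lower at bridge day 6 (-2.44), at an edgeR adjusted p of 0.189 without those libraries, and Nfat5, a relative of Nfatc4, was lower at bridge day 10 (-3.27, edgeR adjusted p = 0.0454). Leaving out 1 library, Id3 was lost without iSC replicate 1 or 2 or bSC replicate 2 (edgeR adjusted p = 0.0543 to 0.0852) in bSCs, Id1 was lost in 7 of 8 fits, all but those without intact replicate 3 (edgeR adjusted p = 0.0597 to 0.253) and Id3 was lost in 5 of 8 fits, all but those without intact replicate 3, 4 or 5 (edgeR adjusted p = 0.0557 to 0.144) at distal day 4, Id3 was lost in 5 of 8 fits, all but those without intact replicate 3, 4 or 5 (edgeR adjusted p = 0.0725 to 0.249) at bridge day 6, and Nfat5 was lost in 5 of 8 fits, all but those without intact replicate 0 or 1 or bridge day 10 replicate 2 (edgeR adjusted p = 0.0594 to 0.278) at bridge day 10.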
